A study of Mus musculus with 4 samples.

Results

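The RNA of 2 control fractions was set side by side: leptotene/zygotene (L/Z) spermatocytes of a Dnmt3L heterozygote (labelled Dnmt3L_Het) and of a Pld6 wild type (labelled Pld6_WT). They are 2 of the 4 libraries of the series and were identified by these genotype labels, and the comparison covers all 23980 genes of the authors' gene table. The series asks what loss of Pld6 or of Dnmt3l does to the transcriptome of early meiotic germ cells, and each of the mutants, which were not analysed here, has 1 of these libraries as the control of its own line. Both libraries hold polyA RNA of cells purified by fluorescence-activated cell sorting (FACS) from mice of 3 to 4 weeks, F1 hybrids between C57BL6/J and MSM/Ms. The Dnmt3L heterozygote carries 1 intact and 1 disrupted allele of Dnmt3l, and the Pld6 wild type (WT) is named for the unmutated allele of Pld6 in the other line. Both lines had been backcrossed to C57BL/6J. To obtain mutants of the F1 background, the study crossed heterozygotes to MSM/Ms over several generations and then mated them to heterozygotes on C57BL/6J. The libraries are called the Het and the WT library from here on. The number of animals behind a library is not given in the sources used here. With 1 library a side there is no replicate check. Genotype, line, animal, sort and library preparation cannot be told apart, so every difference given here is a description of these libraries with no p-value.

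Spermatogenesis runs in order from spermatogonia, which divide by mitosis, through preleptotene, leptotene and zygotene spermatocytes, in which chromosomes form axes, break their DNA and pair, to pachytene spermatocytes and, after the meiotic divisions, to round and elongating spermatids that pack their DNA with protamines. In the testis the germ cells are nursed by Sertoli cells, which line the tubule, are wrapped by contractile peritubular myoid cells, and lie beside steroid-producing Leydig cells, macrophages and vessels. A fraction sorted by DNA content and dye staining can hold RNA of any of these neighbours, and at 3 to 4 weeks of age the tubules already hold spermatids.

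A total of 63875934 fragments was assigned to genes in the Het library and 40541149 in the WT library, and 14276 and 13613 genes reached 1 FPKM (fragments scaled by the authors' tool for transcript length and library depth). Differences are given as log2((FPKM in Het + 1)/(FPKM in WT + 1)). The added 1 shrinks the difference of weakly expressed genes, and higher or lower means past 2-fold on that scale unless a ratio is given. Folds quoted for single genes are plain ratios of FPKM, followed where given by the exact 95% interval of the ratio of fragments. These intervals cover counting error only, since reads carried no molecular identifiers, and they do not follow shifts between transcript isoforms, which FPKM does. Both totals are above the reads per L/Z library that the methods of the study give, for a reason not given in the sources used here, and if reads entered the totals more than once the intervals are too narrow. Of the genes of the mutated loci, Pld6 was not past 2-fold in either direction, at 17.2 FPKM in the Het library and 19.5 FPKM in the WT library. Dnmt3l stood at 1.27 FPKM (101 fragments) in the Het library and 0.980 FPKM (46 fragments) in the WT library. It was not past 2-fold upwards, and its WT level was too low for it to be called lower on the FPKM + 1 scale. The plain ratio of Dnmt3l was 1.30 (0.963 to 1.9965), and an effect of the disrupted allele on its level was not tested. RNA of meiotic germ cells was present in both libraries. Sycp3, a protein of the meiotic chromosome axis, was at 559 FPKM in the Het library and 782 FPKM in the WT library. Sycp3 alone was not used to tell L/Z cells from other meiotic stages.

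Of all 23980 genes, 2652 (11.1%) lay past 2-fold upwards in the Het library and 904 (3.77%) past 2-fold downwards. Among the 14297 genes with a mean of at least 1 FPKM the shares were 18.0% and 6.16%. The gene just inside the upper limit was Odf2 and the gene just outside it Ndufa3, and at the lower limit these were Zranb1 and Cyld. Each of the 4 lay within 0.001 of a difference of 1 on the log2 scale. Past 4-fold there were 938 higher and 131 lower genes, past 8-fold 357 and 110, past 16-fold 117 and 94, and past 32-fold 39 and 71, so higher genes outnumbered lower genes up to 16-fold but not at 32-fold. Of the 110 genes more than 8-fold lower, 109 were genes of short RNAs (microRNAs and small nucleolar or nuclear RNAs) with a median of 2 fragments in the WT library. The other was the protein-coding predicted gene Gm15023 on the X chromosome, named here after its values were seen, which had 0 fragments in the Het library and 689 in the WT library. The 357 genes more than 8-fold higher had a median of 3951 fragments in the Het library, and 22 of them were short RNA genes. In the lists described next, 34 genes lay past 8-fold higher, namely 19 Sertoli cell, 7 spermatid chromatin, 4 Leydig cell, 2 erythroid and 2 sperm tail genes.

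**Figure D1:**
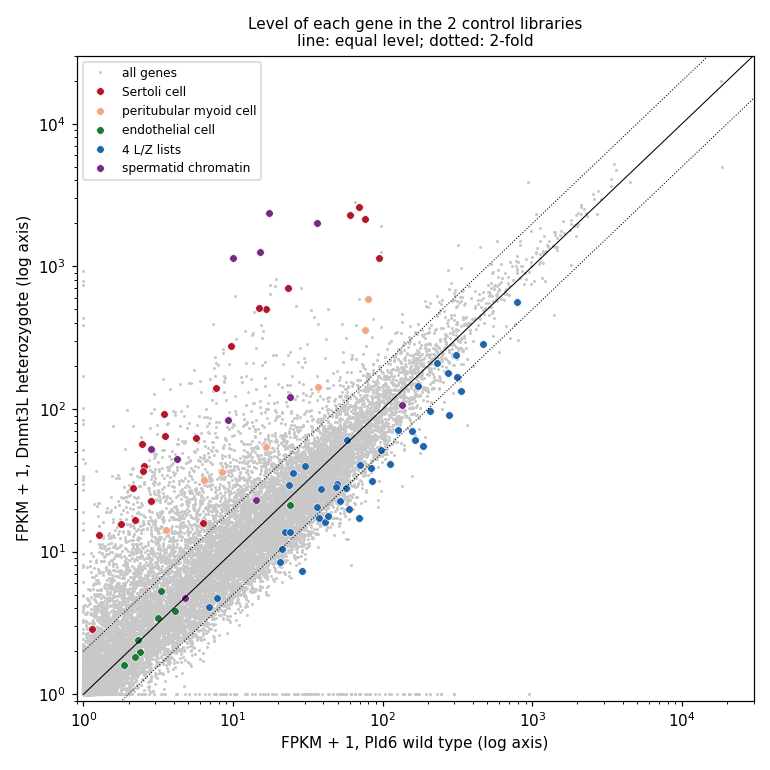
FPKM + 1 of each gene in the WT library (horizontal log axis) against the Het library (vertical log axis), 1 point a gene, with the line of equal level and dotted lines at 2-fold. All 22 Sertoli cell genes and the protamine and transition protein genes lie above the upper dotted line, the 8 endothelial genes lie between the dotted lines, and most genes of the 4 L/Z lists lie below the line of equal level.

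The scale on which both libraries are set matters for these counts. Factors of the trimmed mean of M values (TMM) shifted all differences by -0.09 on the log2 scale and lowered the share of higher genes among all genes past 2-fold from 74.6% to 68.4%, and median-of-ratios factors (DESeq2) shifted them by -0.11 and gave 66.2%. When the 41 genes of the 4 L/Z lists were instead set to a median difference of 0, all genes moved up by 0.91 and 97.6% of the calls were higher genes. Values are on the authors' FPKM scale unless stated.

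All 22 Sertoli cell genes were past 2-fold upwards in the Het library, with a median difference of 4.07 on the log2 scale and FPKM ratios from 2.81 to 44.2 around a median of 25.4. Over all 23980 genes the median difference was 0.00 and 11.1% were higher. Members of the list took 1.16% of all gene fragments in the Het library (95% Wilson interval 1.156% to 1.161%) and 0.0490% in the WT library (0.0484% to 0.0497%). In bulk RNA such as this, fewer cells of a type and less RNA per cell cannot be told apart.

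Genes of secreted proteins reached the highest levels of the list. Clu, which encodes the secreted chaperone clusterin (chromosome 14, 65968483 to 65981548, mm10), was at 2151 FPKM (224271 fragments) against 74.9 FPKM (4902 fragments), a 28.7-fold difference (27.9 to 29.5). Cst12 and Cst9 encode secreted proteins of the cystatin family and are neighbours on chromosome 2. Cst12 was at 2624 against 68.7 FPKM, 38.2-fold higher, and Cst9 at 2282 against 59.4 FPKM, 38.4-fold higher. Ctsl, the protease cathepsin L, had the highest level of the list in the WT library, 93.2 FPKM against 1150.2 FPKM in the Het library (12.3-fold). Hormones and their receptors showed folds of the same order. Inha, the inhibin alpha subunit, was at 507 and 13.9 FPKM (36.5-fold, 33.9 to 39.4). Amhr2, the receptor of anti-Müllerian hormone, was at 499.9 and 15.5 FPKM (32.2-fold), and the hormone gene Amh at 26.7 and 1.14 FPKM (23.4-fold). Fshr, the receptor through which follicle-stimulating hormone acts on Sertoli cells, showed the largest ratio of the list, 12.1 FPKM (1691 fragments) against 0.273 FPKM (24 fragments), 44.2-fold with an interval from 29.6 to 69.2.

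Transcription factors that set Sertoli cell identity lay below the median ratio of the list, and all were past 2-fold. Sox9 was at 14.6 FPKM (3733 fragments) in the Het library and 0.778 FPKM (125 fragments) in the WT library (18.7-fold). Wt1 was 13.3-fold higher (61.6 against 4.63 FPKM), Gata4 11.9-fold (21.7 against 1.82 FPKM), and the X-linked Gata1 25.3-fold (38.7 against 1.53 FPKM). Signals that Sertoli cells send to germ cells were higher as well. Kitl, the ligand of the receptor Kit, was at 15.6 and 1.22 FPKM (12.9-fold). Gdnf, the growth factor of spermatogonial stem cells, was low in both, at 1.87 FPKM (402 fragments) and 0.141 FPKM (19 fragments), a 13.3-fold difference. Trf, transferrin, had the lowest ratio of the list, 2.81-fold (14.9 against 5.29 FPKM).

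Steroidogenic Leydig cell genes were higher in 9 of 10 cases, with a median difference of 2.69 and a median ratio of 10.3. Insl3, the insulin-like hormone of Leydig cells, was at 202 FPKM (5036 fragments) in the Het library and 14.7 FPKM (230 fragments) in the WT library, a 13.7-fold difference. Cyp11a1, which makes pregnenolone from cholesterol, was at 38.4 and 2.64 FPKM (14.5-fold), and Cyp17a1, which acts further on towards androgens, at 43 and 4.82 FPKM (8.90-fold). The members did not move alike. Hsd3b1 was 33.3-fold higher (37.6 against 1.13 FPKM), whereas Star, which delivers cholesterol to the mitochondrion, was at 3.46 against 1.39 FPKM, a difference of 0.90 that did not reach 2-fold on the scale used. Nr5a1, a nuclear receptor that Leydig and Sertoli cells both express, was 24.2-fold higher (47 against 1.94 FPKM). Lhcgr, the receptor of luteinizing hormone, was 6.52-fold higher at low levels (1.57 against 0.240 FPKM, 239 against 23 fragments).

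Smooth muscle genes of the peritubular myoid cell were higher in all 7 cases, within a narrow range of ratios from 3.44 to 7.46 (median 4.78). Acta2, smooth muscle actin, was at 359.5 FPKM (55330 fragments) and 75.2 FPKM (7262 fragments), and Myl9, a myosin light chain, at 589 and 78.9 FPKM. Among Sertoli cell genes Trf, at 2.81, had a ratio below this range, and the other 21 had ratios above it. Of 8 fibroblast and matrix genes 6 were higher, with a median ratio of 4.34. Col1a2, Col3a1 and Dcn, of fibrillar collagen and of its partner decorin, were 5.34-, 6.24- and 6.97-fold higher, while Col1a1 (19.4 against 11.9 FPKM) and the pericyte receptor Pdgfrb (1.23 against 1.01 FPKM) were not past 2-fold.

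Vessel genes gave a different picture, and lymphocyte genes were mostly too low to compare. None of the 8 endothelial genes was past 2-fold, and their median ratio was 0.896 within a range from 0.678 to 1.86. Egfl7 was at 20.1 and 23.2 FPKM, Cdh5, the cadherin of endothelial junctions, at 2.83 and 3.06 FPKM, and Pecam1 at 2.43 and 2.14 FPKM. The median of the endothelial list, -0.14, turned to 0.09 when differences were centred within classes of transcript length and to 0.58 when the L/Z lists were set to 0. In the lymphoid list 0 of 9 genes passed 2-fold, and 4 had more than 3 fragments in both libraries. Cd3e, a chain of the T cell receptor complex, was at 7.59 and 6.89 FPKM. All others were under 1 FPKM in the WT library, too low to be called lower on the FPKM + 1 scale. Of these, Ms4a1 (144 and 37 fragments) had a plain ratio of 2.44 (1.69 to 3.60), and Cd3d and Cd79a had ratios of 0.767 and 0.738.

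Macrophage genes lay in between, with 6 of 14 higher and a median ratio of 2.55. Mrc1, the mannose receptor, was at 14.3 FPKM (4749 fragments) and 1.13 FPKM (236 fragments), 12.6-fold higher, and Lyz2, a lysozyme, at 18.4 and 2.82 FPKM (6.53-fold). Defining markers of the lineage differed less: Csf1r was at 2.72 and 1.47 FPKM, Adgre1 at 0.865 and 0.339 FPKM, and Cd68 at 2.64 and 2.04 FPKM. The complement genes C1qa, C1qb and C1qc, which are neighbours on chromosome 4, had ratios of 1.88, 2.15 and 2.57, and C1qc passed the limit. Cd163, a scavenger receptor, had 31 fragments in the Het library and 0 in the WT library. Among 8 erythroid genes 3 were higher. The globin genes Hba-a1 (308 against 9.39 FPKM) and Hbb-bt (168 against 6.60 FPKM) have near-identical copies between which reads can be split, so their own levels are uncertain. Alas2, the first enzyme of haem synthesis in red cells, was at 14.2 and 1.13 FPKM, while Slc4a1 and Epb42, of the red cell membrane, were each under 1 FPKM in both libraries.

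Over all 8 somatic lists, 53 of 86 genes were higher and 0 lower, and their fragments made up 1.56% of the Het library (1.556% to 1.562%) and 0.134% of the WT library (0.132% to 0.135%). The part that somatic RNA takes in the differences of other genes was not tested.

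**Figure D2:**
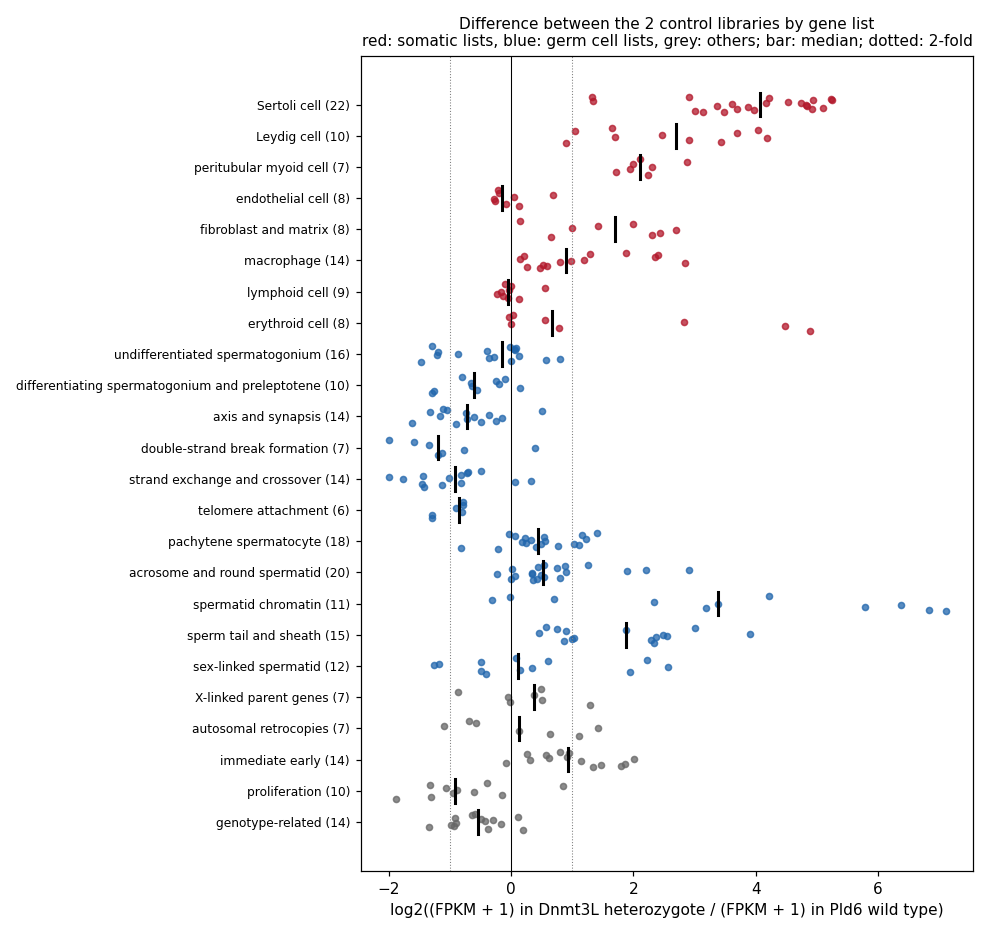
Log2 difference in FPKM + 1 between the Het library and the WT library (horizontal axis) for each gene of the 24 lists, 1 point a gene, with a black bar at the list's median, dotted lines at 2-fold and the number of genes in brackets. The medians run from -1.18 for double-strand break formation to 4.07 for Sertoli cell genes, and the 4 L/Z lists lie left of 0 in 37 of 41 genes.

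Medians of the germ cell lists lay below 0 up to the L/Z stages and above 0 from pachytene on, and with the L/Z genes set to 0 the undifferentiated and the differentiating spermatogonium list turned to 0.36 and 0.29, while the sex-linked spermatid list turned to -0.36 when centred within length classes. Undifferentiated spermatogonium genes had a median difference of -0.15, and 4 of 16 were lower (3.77% of all genes were). These were Zbtb16 (4.61 FPKM in the Het library and 14.5 in the WT library), the pluripotency factors Pou5f1 (2.80 and 7.70 FPKM) and Lin28a (12 and 29 FPKM), and Neurog3 (0.391 and 2.42 FPKM). The other 12 were not past 2-fold, and they lay on both sides of an equal level. Gfra1, the Gdnf receptor, was at 4.87 and 4.89 FPKM, and the transcription regulators Etv5, which Sertoli cells also express, and Id4 had ratios of 1.84 and 1.52. Ret, the co-receptor of Gfra1, Bcl6b and Nanos2 had ratios of 0.754, 0.661 and 0.595. In differentiating spermatogonia and preleptotene cells 2 of 10 genes were lower, with a median of -0.60. Kit, the receptor that marks differentiation, was at 16 FPKM (5162 fragments) and 40.4 FPKM (8178 fragments), 2.52-fold lower, and Sohlh1 at 38 and 92 FPKM. Stra8, which starts meiosis in response to retinoic acid, was nearly level (164 and 187 FPKM, a ratio of 0.877).

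In the 4 lists of L/Z genes 19 of 41 genes were lower and 0 higher, the median difference was -0.89 (median ratio 0.533), and 4 genes lay above 0. They took 0.556% of the gene fragments of the Het library (0.555% to 0.558%) and 1.17% of those of the WT library (1.170% to 1.177%). The share lower in the list, 46.3%, stands beside 6.16% for genes with a mean of at least 1 FPKM.

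Genes that make the DNA breaks of meiosis had the lowest median of the 24 lists, -1.18, with 5 of 7 past 2-fold. With differences centred within length classes the median was -1.11, and telomere attachment genes were lower at -1.15. Spo11 (chromosome 2, 172977379 to 172993576), whose product cuts the DNA, was at 21.8 FPKM (2052 fragments) and 50.9 FPKM (3039 fragments), 2.33-fold lower. Its partner Top6bl, at 6.26 and 28 FPKM, was 4.48-fold lower. Prdm9, the histone methyltransferase that marks where breaks are made, was at 19 and 58.9 FPKM (3.10-fold lower). Rec114 alone of this list lay above 0 (39 against 29.4 FPKM, a ratio of 1.33).

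Genes of strand exchange and crossover followed, with 7 of 14 lower and a median of -0.92. Dmc1, the recombinase of meiosis, was at 59.8 FPKM (7770 fragments) and 162 FPKM (13233 fragments), 2.71-fold lower. Tex15 was 3.46-fold lower (53.6 against 185 FPKM), and Msh5, which stabilises crossover intermediates, 4.18-fold lower (16.2 against 67.9 FPKM), while its partner Msh4 differed 2.13-fold (9.45 against 20.1 FPKM). Psmc3ip and Mnd1 encode the 2 subunits of a complex that helps Dmc1, and both lay slightly above 0, with ratios of 1.05 and 1.27.

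Among the 14 genes of chromosome axes and synapsis 5 were lower and the median was -0.72. Sycp2, an axis protein, was at 89.2 FPKM (31788 fragments) and 274 FPKM (61288 fragments), 3.07-fold lower. Sycp3, which binds it, was 1.40-fold lower, and Sycp1, the zipper between paired axes, 1.86-fold lower (167 against 311 FPKM). The meiotic cohesin genes Smc1b, Stag3 and Rad21l were 2.50-, 2.16- and 2.09-fold lower, but Rec8, a further meiotic cohesin, was at 34.7 against 24.1 FPKM, a ratio of 1.44. Of 6 genes that tie telomeres to the nuclear envelope 2 were lower, Terb1 (16.7 and 42.3 FPKM) and Terb2 (7.49 and 19.7 FPKM), and all 6 lay below 0. With differences centred within length classes 5 of the 6 were lower. On the scale that sets the median of these 41 genes to 0, the axis and telomere lists had medians of 0.17 and 0.03.

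Proliferation genes showed the same direction, with 4 of 10 lower (40.0%, beside 6.16% of all genes of at least 1 FPKM) and a median of -0.92. With the L/Z genes set to a median of 0, the median of this list was -0.02. Mki67 was at 25.5 FPKM (16362 fragments) and 96.9 FPKM (38984 fragments), 3.80-fold lower, and Top2a, a topoisomerase of dividing cells, at 98.5 and 246 FPKM. Replication genes differed less: Pcna was at 263 and 289.6 FPKM and Mcm2 at 44.6 and 86.6 FPKM, neither past 2-fold. Cdk1 went the other way (45.3 against 24.7 FPKM, a ratio of 1.83).

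Genes that come up in pachytene lay on the other side of 0. Of 18 such genes 5 were higher and 0 lower, and the median was 0.45. The share of higher genes, 27.8%, stands beside 18.0% of all genes of at least 1 FPKM, and it depended on the scale. The number of higher genes was 3 with DESeq2 size factors, 14 with the L/Z genes set to 0 and 0 with differences centred within length classes. On the FPKM scale Meig1, needed to shape the sperm head and tail, was at 616 FPKM (20137 fragments) and 231 FPKM (4740 fragments), 2.66-fold higher, and Rsph1, a radial spoke protein of the axoneme, at 581 and 247 FPKM (2.35-fold). Ldhc and Pgk2 encode glycolytic enzymes of germ cells and were 2.05- and 2.18-fold higher. Over the list 15 genes lay above 0 and 3 below. Tcfl5, Crem and Tbpl1 had ratios of 1.19, 1.18 and 1.13. Among the genes below 0, Mybl1, a transcription factor of the pachytene programme, was at 13.7 against 24.7 FPKM, a ratio of 0.553. Piwil1, which binds pachytene piRNAs, was at 16 against 18.7 FPKM.

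Round spermatid genes were close to the pachytene list, with a median of 0.52 that fell to 0.24 after centring within length classes. Of 20 genes 4 were higher, a share of 20% that is near the 18.0% of all genes of at least 1 FPKM. Genes of 3 acrosome proteins (the acrosome is the vesicle over the sperm head) were not past 2-fold: Acr was at 19.5 and 14.2 FPKM, Acrv1 at 19.3 and 14.8 FPKM, and Spaca1 at 21.7 and 21.7 FPKM. The 4 that passed 2-fold were the testis-specific kinases Tssk2 (3.96-fold), Tssk3 (5.48-fold) and Tssk6 (10.9-fold, 21.1 against 1.94 FPKM) and the actin-like Actl7a (2.54-fold). Tssk1, next to Tssk2 on chromosome 16, was at 26.9 and 13.9 FPKM and not past the limit.

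Genes of elongating spermatids differed far more. In the spermatid chromatin list 8 of 11 genes were higher, with a median of 3.39. Protamines and transition proteins replace histones in the condensing sperm head, and their genes held the top 4 places by log2 difference among the 13575 genes that qualified for naming. Prm1 (chromosome 16, 10796332 to 10796823, mm10) was at 2372 FPKM (30458 fragments) in the Het library and 16.3 FPKM (131 fragments) in the WT library, 146-fold higher with an interval from 123 to 174. Prm2 was at 1135 FPKM (30188 fragments) against 8.93 FPKM (149 fragments), 127-fold (108 to 150.3). Tnp2 was at 1255 against 14.2 FPKM, 88.4-fold (77 to 102), and Tnp1 (chromosome 1, 73015074 to 73015899) at 2007 against 35.5 FPKM, 56.6-fold (50.7 to 63.4). The 4 genes thus differed by unlike ratios, and the intervals of Prm1 and Tnp1 do not overlap. Prm3 was 10.1-fold higher (83.2 against 8.28 FPKM). Histone variants of the spermatid, H1fnt (13.4-fold), Hils1 (5.25-fold) and H2afb1 (28.2-fold, 1079 against 24 fragments), were also higher. H2afb1 belongs to a family of near-identical copies and its value is uncertain. The 3 members that did not pass were H1fx, which is made in many cell types (106 and 133 FPKM), and the histones Hist1h2ba (22.2 and 13.3 FPKM) and Hist1h2aa (3.70 and 3.74 FPKM), known from earlier germ cells as well.

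Tail and sheath genes stood between these lists, with 10 of 15 higher and a median of 1.88. Akap4, the main protein of the fibrous sheath and an X-linked gene, was at 70.0 FPKM (12067 fragments) and 13 FPKM (1407 fragments), 5.38-fold higher. Spem1 was 20.7-fold higher (50.8 against 2.46 FPKM) and Fscn3, an actin bundler, 27-fold (1032 against 24 fragments). Odf1, Smcp, Gapdhs and Oaz3 had ratios from 5.11 to 6.15. The tektin gene Tekt2 was at 42.9 and 30.9 FPKM, a ratio of 1.39. Odf2 lies on the limit, at 258 and 129 FPKM, and its fragments alone give an interval from 1.89 to 1.97, below 2-fold.

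**Figure D3:**
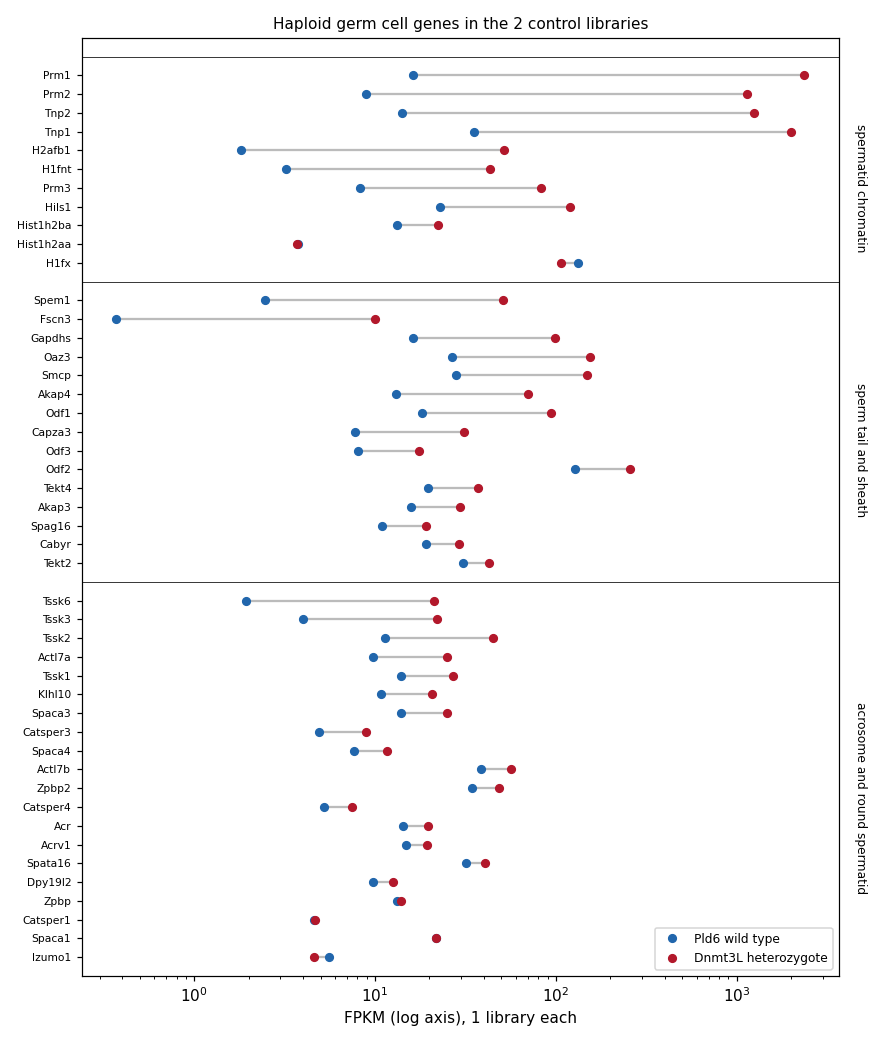
FPKM (log axis) of the genes of 3 haploid germ cell lists in the Het library (red) and the WT library (blue), 1 library each, joined by a grey line and grouped by list. The gaps are widest for Prm1, Prm2, Tnp2 and Tnp1 and narrow for most acrosome genes, among which Tssk6 has the widest.

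Prm1, Prm2, Prm3 and Tnp2 lie within a short stretch of chromosome 16, and Tnp1 lies on chromosome 1. Promoters were compared because genes switched on late in spermatids often carry a cAMP-response element, the site of the spermatid activator CREM. Windows from 250 bases before to 50 bases after each start were taken from RefSeq (GRCm38.p6). The octamer TGACNTCA on either strand, which includes the full element TGACGTCA, was in 4 of 6 promoters found for the spermatid chromatin list (Prm1, Prm3, Tnp1 and Hils1), in 5 of 18 promoters (4 of 11 genes) of the tail list, in 1 of 14 of the Sertoli list and in 8.83% of all 32851 promoters. The full element was in 0 of the promoters of these 3 lists and in 1.79% of all. In the 3 sequences that follow, given 5′ to 3′ on the gene's own strand, capitals mark the octamer as it reads on that strand (for Prm3 and Tnp1 it is the reverse complement of the motif). They are shown as the protamine and transition protein genes of the list in whose window the octamer was found.
Prm1, chr16:10796869-10796898, minus strand: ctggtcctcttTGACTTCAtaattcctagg
Prm3, chr16:10790956-10790985, minus strand: tggagcctttgTGAGGTCAgtgccacaccc
Tnp1, chr1:73015975-73016004, minus strand: gcaaaggttagTGATGTCAcaagagagctg
The octamer begins 64 bases upstream of the start in Prm1, 60 in Prm3 and 94 in Tnp1. The octamer was not found in the windows of Prm2 and Tnp2, whose transcripts differed by 127- and 88.4-fold. In the tail list the window of Akap4 (chrX:7067469-7067498, plus strand) reads tatagaaacagTGATGTCAtgaattttaag and that of Akap3 (chr6:126853065-126853094, plus strand) tatagaaacagTGATGTCActagctgcaat. Both windows begin with the same run of letters up to the end of the octamer, while Akap4 transcripts were 5.38-fold and Akap3 transcripts 1.88-fold higher. Crem itself was at 28 and 23.7 FPKM, a ratio of 1.18. A match of letters is a description and does not show a bound site. The motif CAAGGTCA is bound by the nuclear receptor Nr5a1 that Sertoli and Leydig cells express. It was in 1 of 14 promoters of the Sertoli list (Amhr2), in 0 of 7 of the Leydig list and in 1.56% of all. It was also in 1 of 6 promoters of the spermatid chromatin list (Prm2) and in 0 of 18 of the tail list.

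Sex chromosomes are silenced in pachytene and partly reopened in spermatids. Of 665 X-linked genes with a mean of at least 1 FPKM, 34.0% were higher and 9.17% lower, against 17.2% and 5.97% of 13525 autosomal genes, and the median was 0.34 against 0.06. The largest share of higher genes on any autosome was 22.9%, on chromosome 3. Leaving out all genes of the lists, 33.7% of 644 X-linked genes were higher. The excess of higher genes held in each of 5 classes of transcript length, from 46.5% against 27.7% in the shortest class to 18.1% against 9.35% in the longest. Lower genes were also more frequent on the X in the middle classes, at 8.97% against 1.94%, 6.02% against 2.47% and 15.3% against 4.63%. In the shortest class lower genes were at 4.87% against 6.32%, and in the longest at 14.9% against 14.6%. Y-linked genes went the other way, with 2 higher and 4 lower among 33 and a median of -0.19.

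**Figure D4:**
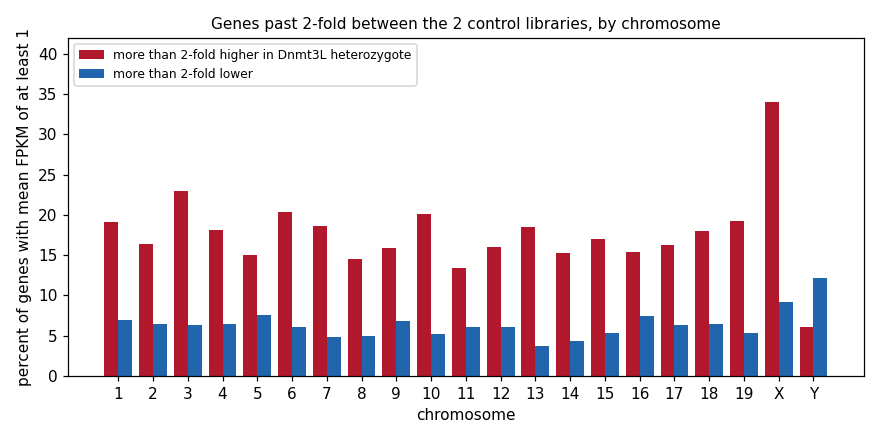
Percent of the genes with a mean of at least 1 FPKM on each chromosome that were more than 2-fold higher (red) or lower (blue) in the Het library. The X chromosome stands at 34.0% higher, above every autosome, and the Y chromosome, with 33 genes, is the only one with more lower than higher genes.

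The sex-linked genes known from spermatids did not move together. Of 12, 3 were higher, 2 lower and the median was 0.11, which turned to -0.36 when differences were centred within classes of transcript length. Slxl1 and Cypt3, on the X chromosome, were 4.22- and 5.16-fold higher, and H2al1m 11-fold (227 against 13 fragments), a value that is uncertain because the gene has near-identical copies. The zinc finger genes Zfy1 and Zfy2 of the Y chromosome, which act at the checkpoint of pachytene as well as in spermatids, were 2.73- and 2.56-fold lower (4.00 against 10.9 and 4.19 against 10.7 FPKM). Slx, Ssty1, Ssty2 and Sly belong to families of many near-identical copies, so their values, all from 1.22 to 6.61 FPKM in the Het library, are uncertain. Some X-linked housekeeping genes have autosomal retrocopies that stand in for them during silencing. Pgk1 was 2.50-fold higher (63.2 against 25.3 FPKM) and its retrocopy Pgk2 2.18-fold, and Cetn2 was level (49.7 against 51.5 FPKM) while Cetn1 was 2.73-fold higher. Utp14b, a retrocopy needed for spermatogenesis, was 2.34-fold lower (5.38 against 12.6 FPKM), and its parent Utp14a was at 17.5 against 13.3 FPKM. Over 7 retrocopies 2 were higher (28.6%) and 1 lower (14.3%), with a median of 0.12 that turned to -0.35 after centring by length, where 0 were higher.

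Immediate early genes, which respond within minutes to outside stimuli, were higher in 6 of 14 cases (42.9%, beside 18.0% of all genes of at least 1 FPKM), with a median of 0.94. Fos was at 104 FPKM (12823 fragments) and 40.6 FPKM (3126 fragments), 2.57-fold higher, Junb 3.83-fold and Ier2 4.28-fold (48.9 against 11.4 FPKM). Jund was level (75.5 against 80.0 FPKM).

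Partners of the mutated loci were examined last among the lists. Of 14 genes of DNA methylation and the piRNA pathway, 1 was lower and 0 were higher, with a median of -0.54 that turned to 0.29 with the L/Z genes set to 0. The share of lower genes, 7.14%, is near the 6.16% of all genes of at least 1 FPKM, and the number was 3 with TMM factors and 5 with DESeq2 size factors. The gene on the FPKM scale was Dnmt3b, a de novo methyltransferase, at 13.4 FPKM (3457 fragments) in the Het library and 35.3 FPKM (5611 fragments) in the WT library, 2.63-fold lower. Dnmt3a was at 10.1 and 13.3 FPKM and the maintenance methyltransferase Dnmt1 at 40.3 and 77.8 FPKM. In the piRNA pathway Piwil2, at 45.1 and 84.9 FPKM, and the helicase Mov10l1, at 54.6 and 104 FPKM, differed by about as much as the L/Z lists, while Mael was level (399 and 369 FPKM).

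Transcript length moved with the difference. In 5 classes of equal size by the longest transcript of a gene, the median ran from 0.47 in the shortest class (up to 1597 bases) through 0.25, 0.05 and -0.08 to -0.37 in the longest (from 4950 bases). The share of lower genes was 14.6% in the longest class and between 2.30% and 6.16% in the other 4. The same order showed within lists. The 21 shorter genes of the 4 L/Z lists had a median of -0.73 and the 20 longer ones -1.12. Among Sertoli cell genes the medians were 4.83 for the 11 shorter and 3.36 for the 11 longer, and among pachytene genes 1.03 and 0.24. Centred on the median of its length class, the L/Z median was -1.03, the Sertoli median 3.96, the spermatid chromatin median 2.92 and the pachytene median 0.35, so the order of these lists stayed. The cause of the trend with length was not tested. In 5 classes of GC content the medians ran from -0.11 to 0.19, and in 5 classes of mean FPKM from -0.08 to 0.20.

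**Figure D5:**
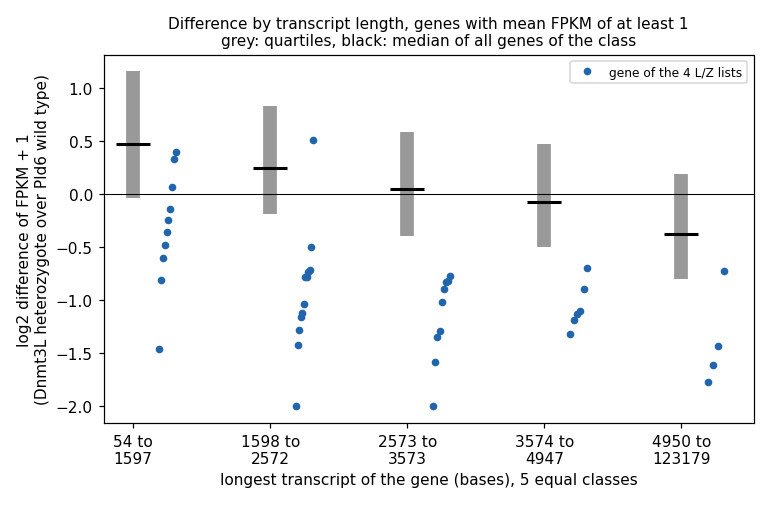
Log2 difference in FPKM + 1 (vertical axis) in 5 equal classes of longest transcript length (horizontal axis) for genes with a mean of at least 1 FPKM, with grey bars from the lower to the upper quartile and black lines at the median. Medians run from 0.47 down to -0.37, and the genes of the 4 L/Z lists (blue) lie mostly below the lower quartile of their class.

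Genes that lead the whole comparison followed the same lines. The 10 with the largest difference upwards had transcripts of 386 to 674 bases. Besides the protamine and transition protein genes they held Defb19, a beta-defensin, at 2824 FPKM (35166 fragments) against 64.5 FPKM (504 fragments), 43.8-fold higher. The uncharacterised genes 8030411F24Rik (394 against 6.28 FPKM), 1700015G11Rik (126 against 1.98 FPKM) and the non-coding 1700018G05Rik (744 against 16.6 FPKM) were also among them. Tmsb15b1 and Tmsb15b2, thymosin copies on the X chromosome that can share reads, were at 97 against 0.945 and 161 against 2.39 FPKM, and their single values are uncertain.

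The 10 genes with the largest difference downwards had a median transcript length of 4368.5 bases. Ccnb3, an X-linked cyclin of early meiosis (6979652 to 7041635), led them at 11.3 FPKM (3186 fragments) against 57.8 FPKM (10245 fragments), 5.13-fold lower (4.93 to 5.34). Brca2, which loads recombinases on broken DNA, was 4.18-fold lower (12.7 against 53.1 FPKM), and Msh5 was also among them. Very long transcripts were frequent, with Mdn1, a ribosome assembly factor (4.67-fold lower), Cenpf, a kinetochore protein (4.19-fold), and Lyst, a regulator of lysosomes (4.20-fold). Pet2, on the X chromosome, was at 11.3 against 55.6 FPKM. Foxn4 was at 0.139 FPKM (25 fragments) against 3.68 FPKM (415 fragments). Cldn20 and Rpl26 had 0 fragments in the Het library and 59 and 52 in the WT library. Rpl26 is a ribosomal protein gene with copies elsewhere that can take its reads, so its value is uncertain.

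By difference in FPKM, the top 10 upwards added Rpl41 (5233 against 3496 FPKM), Rps27 (2319 against 1059 FPKM) and Tmsb4x, an actin-binding thymosin (1266 against 96.1 FPKM, 13.2-fold), to Defb19, Cst12, Cst9, Clu, Prm1, Tnp1 and Tnp2. Downwards the top 10 held 1 gene past 2-fold. Lars2, the mitochondrial leucyl-tRNA synthetase (chromosome 9, 123366927 to 123462675), was at 302 FPKM (72168 fragments) against 799 FPKM (119663 fragments), 2.64-fold lower. The germ cell genes in that group were Dazl, an RNA-binding protein (323 against 540.0 FPKM), Tex101, a germ cell surface protein (821 against 1163 FPKM), and Sycp3. Others were the chaperone Hspa5, the nucleolar protein Npm1, the tubulin Tubb4b and the ribosomal proteins Rps28 and Rps27rt, with ratios from 0.648 to 0.869. Rps27 and Rps27rt are near-identical and lie on opposite sides, so their single values are uncertain.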

How the data were processed

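RNA of FACS-purified L/Z spermatocytes was sequenced as strand-specific polyA libraries, from 1 end, with reads of 50 bp. The authors used TopHat2 for alignment and Cuffdiff for gene levels. Their versions are not given in the sources used here, and the submitters' processing notes name the build mm10. The deposited gene table holds, for each of 23980 genes and each library, an estimated count of fragments before scaling, of which 97.6% (Het, the Dnmt3L heterozygote) and 97.9% (WT, the Pld6 wild type) are whole numbers within 0.001. It also holds FPKM, which the authors' tool scaled to transcript length and library depth. The tool marked 5 and 4 values as failed, and these were kept as listed. The rows of the mutant libraries and the columns of scaled fragments were not used.

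Differences were computed as log2((FPKM + 1)/(FPKM + 1)) and counted past 2-fold. Since 1 library stands on each side, no test was run. The exact 95% interval of a ratio comes from the fragments of both libraries (Clopper-Pearson, scaled by the median of FPKM per fragment), and a count of 0 allows up to 3 fragments. Shares of fragments have 95% Wilson intervals. TMM factors (edgeR 4.0.16) and DESeq2 1.42.0 size factors were computed from the estimated counts rounded to whole numbers, and FPKM was multiplied by the ratio of the factors, since the table gives no effective length. A gene's length and GC content are those of its longest transcript in GENCODE M21 (98.5% of genes matched), and positions are from RefSeq of GRCm38.p6, which has the coordinates of mm10 (99.3%). Scripts ran in Python 3.11.15 and R 4.3.3 and were tested on simulated data.

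The 24 gene lists were written from general knowledge, and the comparison, its members and the lists were chosen with earlier results of these data known. Of 285 listed genes 280 were found, 12 by an older symbol. Any list member could be named. Of the other genes with a mean of at least 1 FPKM, at least 50 fragments in the higher library and a symbol of no microRNA, small RNA or predicted gene, the 10 with the largest log2 difference and the 10 with the largest FPKM difference in each direction were named. Some genes of the lists and of the naming rule are not reported here by name.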

Additional observations from a re-analysis of the deposited data

How the results depend on the processing

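The counts of 2652 higher and 904 lower genes depended on how low values and scale were set. With a pseudocount of 0.1 FPKM they were 4016 and 2141, with a 3-fold limit 1418 and 190, and with the 41 L/Z genes set to a median of 0, 6516 and 163. Over the list members, counted once per list, 92 were higher and 33 lower. A 3-fold limit left 5 lower, and the L/Z centring gave 149 higher and 2 lower. TMM factors, DESeq2 size factors, total fragments, a mean of at least 1 FPKM, at least 20 fragments in 1 library, leaving out failed values and centring by length class, an alternative added after the data had been seen, kept all 4 counts within 1.5 times. The number of lists with a median above 0 was 14 and lay between 13 and 20 in all alternatives run. No paired analysis was possible because each group has 1 library and the labels carry no replicate numbers, and no library could be left out for the same reason. A gene at 0 fragments can hold up to 3 at these depths, and differences between libraries beyond counting error have no measure of spread here.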

Other observations

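Gene families outside the lists were chosen after their values were seen and are given with no test. Their counts stand beside 11.1% higher and 3.77% lower among all genes, and 18.0% and 6.16% among genes of at least 1 FPKM. Of 43 beta-defensin genes 9 (20.9%) were higher and 1 lower in the Het library, and most were at or near 0 in both libraries. Defb36 was at 732 FPKM against 18.1 FPKM in the WT library and Defb45 at 231 against 6.61 FPKM, ratios of 40.4 and 34.9. Of 12 cystatin genes 7 were higher, with Cst8 at 85.1 and 5.98 FPKM and the widely expressed Cst3 at 685 and 303 FPKM. The thymosin Tmsb10 was nearly level, at 963 and 793 FPKM. Tubulins divided. Tuba1a (391 and 36.0 FPKM), Tuba1b (314 and 55.8 FPKM) and Tubb3 (157 and 7.75 FPKM) were higher, and Tubb2a (5.44 and 8.59 FPKM) was not past 2-fold. Of 45 collagen genes 13 were higher and 1 lower, among them Col18a1 (57.5 and 6.26 FPKM) and the basement membrane chain Col4a3 (17.2 and 4.16 FPKM). In the laminin family 4 of 11 were higher, with Lama1 at 6.74 and 1.18 FPKM, while Lama5 was lower (4.22 and 12.6 FPKM).

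Kinesin motors leaned the other way, with 11 of 38 (28.9%) lower, 2 higher and a median difference of -0.64. Their median length was 5434 bases, and in the longest length class 14.6% of genes of at least 1 FPKM were lower. After centring by length class the kinesin median was -0.38, with 14 genes above 0 and 24 below. Kif11, which drives spindle poles apart, was at 19.6 and 45.8 FPKM, and Kif18b at 8.21 and 20.1 FPKM. The higher ones, Kif21a (16.6 and 1.56 FPKM) and Kif1a (4.93 and 0.400 FPKM), are known from neurons. Among 342 genes named by RIKEN clones of the adult testis collection 98 (28.7%) were higher and 6 (1.75%) lower. These genes are short, with a median length of 958 bases, and their median difference was 0.53. After centring by length class that median fell to 0.15, with 197 genes above 0 and 141 below. Whether the share of higher genes exceeds that of other genes of like length was not tested. Of 81 cytosolic ribosomal protein genes 2 were higher and 1 lower, and the X-linked Rps4x was 1 of the 2, at 372 and 96.0 FPKM. The median of the family was 0.13. After centring by length class it turned to -0.24, with 16 genes above 0 and 65 below. For 37 genes of NADH dehydrogenase the median was 0.49, with 5 (13.5%) higher and 0 lower, and 0.14 after centring by length class.

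Genes seen in 1 library alone were 1617 for the WT library and 321 for the Het library, although the latter was the deeper library. The median was 3 fragments in the WT set and 10 in the other, and 73 and 70 of the genes had more than 20 fragments.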
